A study of Mus musculus with 6 samples.

Results

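Transcripts of 5 genes with roles in the priming of T cells were followed in mouse bone marrow-derived macrophages of 2 genotypes. They are Cd86 and Cd83, which encode costimulatory surface proteins, Il27 and Fgl2, which encode secreted products that regulate T cells, and Clec9a, which encodes a receptor of dendritic cells. The genes were chosen by symbol, with earlier results of these data known, and all 5 were found among the 714 genes of the deposited table. The cells were grown from C57BL/6 bone marrow for 6 days with GM-CSF at 10 ng/ml, and RNA was taken 24 h after beads coated with CD47 had been added. The 3 wild-type libraries and the 3 Senp8+/- libraries, in which 1 copy of the gene for a NEDD8-specific protease is altered, all came from cells given these beads, so no value describes cells without CD47. The sample titles call the Senp8+/- libraries KO. The labels do not say how the Senp8 allele was made, or whether the libraries of a genotype came from different mice. The p-values therefore describe the spread between libraries, which may be technical.

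A naive T cell is primed when it receives antigen on an MHC molecule together with a second signal from costimulatory proteins on the presenting cell, while cytokines set the kind of response. CD86 binds CD28 to activate and CTLA-4 to restrain. CD83 is a maturation marker that stabilises CD86 and MHC class II at the surface. IL-27 is a cytokine made of the Il27 product p28 and the Ebi3 product, and it both promotes type 1 responses and limits inflammation. FGL2 occurs as a membrane prothrombinase and as a secreted protein that restrains T cells and antigen-presenting cells through FcγRIIB. CLEC9A is a C-type lectin that senses actin exposed by dead cells and serves cross-presentation, and it marks conventional type 1 dendritic cells, called cDC1. Marrow grown with GM-CSF holds macrophage-like and dendritic cell-like cells side by side.

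Levels are given as normalised counts, that is, a gene's reads over the size factor of its library, which ran from 0.933 to 1.14. The table lists only genes with an unadjusted p under 0.05 (highest 0.0499) and at least a 2-fold difference in the authors' own test, so every member had met those limits, and the full depth of the libraries is unknown here. "Fell", "rose" and "called" are used of genes whose deposited adjusted p, the authors' own, is under 0.05. Of the 12 macrophage markers 2, C1qa and C1qc, were listed. Their summed level was 8169 to 11604 normalised counts in Senp8+/- and 10922 to 24342 in wild type, with overlap between the genotypes, and neither was called; at equal medians, explained below, C1qc changed sign. A gene outside the table has no value here, so the macrophage label could not be checked further, nor could the genotype label be checked on Senp8.

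RefSeq upstream sequences of GRCm38.p6 were at hand for 2 of the 5 members, Fgl2 and Clec9a, the members with the largest differences between genotypes. They are printed to show what kind of promoter each has. Each runs from 250 to 10 bases before the RefSeq start on the plus strand, 241 bases in all, at chr5:21372423-21372663 for Fgl2 and chr6:129408612-129408852 for Clec9a. Capitals mark matches to a motif on either strand.
Fgl2: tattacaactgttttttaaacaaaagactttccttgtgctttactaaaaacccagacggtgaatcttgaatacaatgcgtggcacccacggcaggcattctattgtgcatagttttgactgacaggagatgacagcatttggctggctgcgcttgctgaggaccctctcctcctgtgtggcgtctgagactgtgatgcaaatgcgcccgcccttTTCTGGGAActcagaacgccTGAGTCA
Clec9a: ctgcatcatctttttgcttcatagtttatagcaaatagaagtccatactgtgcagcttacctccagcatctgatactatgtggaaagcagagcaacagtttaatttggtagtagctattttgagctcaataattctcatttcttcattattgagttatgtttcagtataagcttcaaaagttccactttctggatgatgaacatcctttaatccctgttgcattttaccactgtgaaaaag

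Short motifs, 5 in all, were searched on both strands of these windows and of the same window in 32851 RefSeq promoters. The Fgl2 window held 1 match to the STAT-type GAS motif TTCNNNGAA, 36 to 28 bases before the start, a motif in 6.79% of all windows. It also held 1 match to the AP-1 motif TGANTCA, 16 to 10 bases before the start, a motif in 6.60% of all windows. These matches do not overlap each other. The RefSeq start of Fgl2, at 21372673, lies downstream of the start the deposited table gives, 21372642, so by the table's gene model the GAS match spans the start and the AP-1 match lies within the gene. The RefSeq start of Clec9a equals that of the table. The Clec9a window held none of the 5 motifs, which also included the interferon-type AAANNGAAA (9.07% of all windows), the PU.1-type AGGAAGT (7.37%) and the NF-kB motif (6.98%). The windows differed in composition, with 48.1% G or C and 8 CpG pairs for Fgl2 against 35.3% and 0 for Clec9a, beside medians of 52.3% and 5 over all windows. A match only describes these letters.

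**Figure D1:**
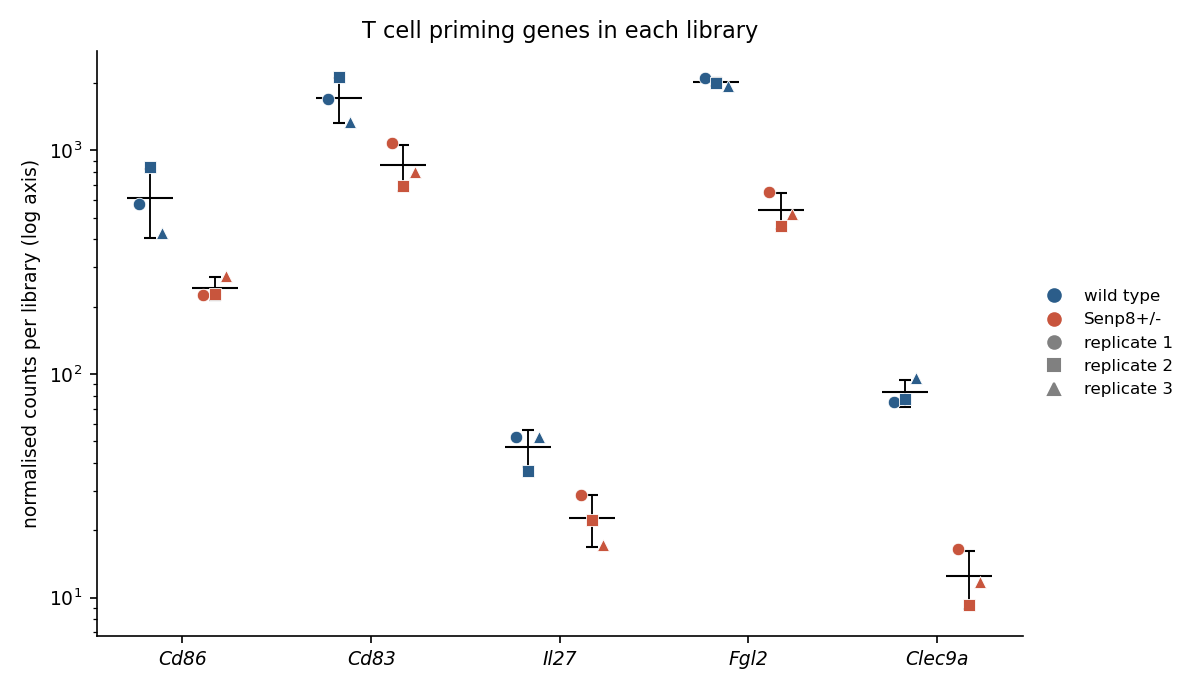
Normalised counts (log axis) of the 5 genes in each of the 6 libraries, with a marker shape for each replicate number and black bars for the mean ± SD of the 3 libraries of a genotype. In each gene the 3 Senp8+/- libraries lie below the 3 wild-type libraries, and the gap is widest in Clec9a and narrowest in Cd83.

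The comparison of the genotypes asks which of these transcripts differ when macrophages with 1 altered copy of Senp8 meet CD47. Each of the 5 was lower in Senp8+/- macrophages. Clec9a fell to 15.1% of its wild-type mean, Fgl2 to 27.0%, Cd86 to 39.5% and Cd83 to 49.9%, while Il27 stood at 48.1% of its wild-type mean and was not called. Thus 4 of 5 members were called lower, as were 242, or 33.9%, of the 714 listed genes. Those 242 are 1.65% of the 14694 genes in the authors' correction, a share that leaves out any called gene under 2-fold, since such genes are not listed. Since the genes were taken from a table selected on this contrast, these shares describe the members and support nothing further. In 5 of 5 members each Senp8+/- library lay below each wild-type library, as it did for 70.6% of the listed genes. The limma fit to log2(value + 1), with Benjamini-Hochberg adjustment over 14694 genes, passed only Clec9a and Fgl2 at an adjusted p of 0.05. It was fitted to the 714 listed genes alone and called 149 of them, 20.9%, lower. These are 1.01% of the 14694 genes only if each unlisted gene, which limma did not test, is counted as not called.

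The size of each difference depends on the scaling between libraries, which the listed genes cannot settle. When each library was instead scaled so that the listed genes had 1 common median, the log2 differences moved up by a median of 0.96. Since 569 of the 714 listed genes were lower in Senp8+/- with the deposited size factors, equal medians move differences up by construction. Why most listed genes were lower was not tested. Scaling to equal medians therefore shows how far the values depend on scaling and cannot decide the direction of a gene. limma then called 35 listed genes lower and 125 higher, in place of 149 lower and 27 higher. Under it the Clec9a difference was -1.69, that of Fgl2 -0.89, that of Cd86 -0.28, that of Il27 -0.05 and that of Cd83 0.01, so that the sign of Cd83 turned. Of the other genes given with values below, none turned. Clec9a was the 1 member still past the threshold there (limma adjusted p = 0.0468).

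Of the costimulators, Cd86 (ENSMUSG00000022901, minus strand, chromosome 16 from 36603869 to 36666081) is the B7 family ligand of CD28. Its level was 226, 227 and 275 normalised counts in Senp8+/- replicates 1, 2 and 3 and 573, 845 and 428 in wild-type replicates 1, 2 and 3. The Senp8+/- libraries were close to each other, while the wild-type libraries spread over a 1.97-fold range, with replicate 2 highest and replicate 3 lowest. The lowest wild-type library still lay 1.55-fold above the highest Senp8+/- library. The mean fell 2.53-fold, from 615 ± 211 to 243 ± 28.1 (SD, n = 3). In the authors' deposited table its adjusted p was 0.00179, whereas limma gave a log2 difference of -1.29 ± 0.32 (SE; adjusted p = 0.0807). Leaving out wild-type replicate 3, the lowest of its group, brought limma's adjusted p to 0.0279, and leaving out any other library gave 0.234 to 0.477.

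Cd83 (ENSMUSG00000015396, plus strand, chromosome 13 from 43784775 to 43803132) was far more abundant. Senp8+/- replicates 1, 2 and 3 held 1084, 696 and 798 normalised counts, and wild-type replicates 1, 2 and 3 held 1699, 2122 and 1344. The wild-type libraries took the same order as for Cd86, with replicate 2 highest and replicate 3 lowest, but the Senp8+/- libraries did not, since replicate 1 was the highest here. The groups came close, and the lowest wild-type value was 1.24 times the highest Senp8+/- value. The mean fell 2.004-fold, from 1722 ± 389.6 to 859 ± 201, with an adjusted p of 0.0233 in the authors' deposited table, and turned sign at equal medians as given above. Cd83 is thus only just inside the 2-fold limit of the table. limma gave it -1.002 ± 0.28 (SE; adjusted p = 0.155).

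Of 29 costimulatory and coinhibitory ligands and their partners 7 were listed, of which 6 fell, Cd86 and Cd83 among them, none rose and 1 was not called. Without these members 4 of 5 fell, where 33.9% of the listed genes did. The median log2 fold change of all 7, members included, was -1.34 in the authors' deposited table, beside -1.48 over all 714 listed genes. Pdcd1lg2, which encodes the PD-1 ligand PD-L2, fell from 36.1 ± 9.82 to 11.4 ± 0.692. Tnfrsf14, the HVEM receptor that engages BTLA and LIGHT, fell from 307 ± 184 to 92.2, with libraries at 148 to 508 in wild type and at 80.3 to 115 in Senp8+/-. Vsig4, a complement receptor that restrains T cells, fell from 368 ± 195 to 135 ± 12.6, and Nectin2, which binds CD226 and TIGIT, fell from 119.98 ± 16.3 to 57.9 ± 14.03. None of these 4 passed limma, with adjusted p-values of 0.0816, 0.123, 0.157 and 0.226. The TNF family ligand Tnfsf9, or 4-1BBL, had the higher mean in Senp8+/-, 70.9 ± 12.8 against 35.4 ± 11.5, and was not called (adjusted p = 0.182 in the authors' deposited table). Ligands such as Cd80, Cd40, Icosl and Cd274 were among the 22 that are not listed.

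**Figure D2:**
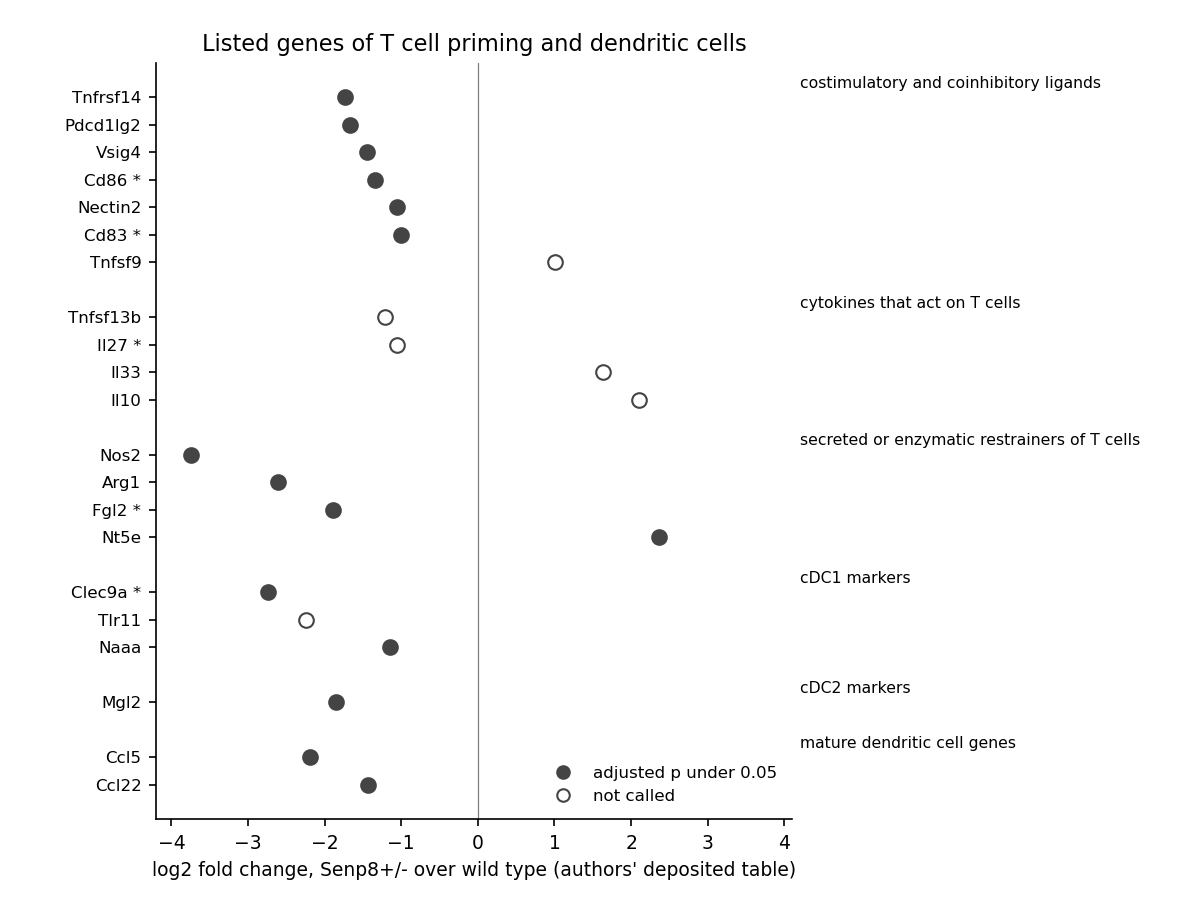
Log2 fold change of Senp8+/- over wild type, as in the authors' deposited table, for the listed genes of 6 lists, with the 5 members starred and filled circles for an adjusted p under 0.05. Most called genes lie left of 0, Nt5e lies at 2.36, and the 4 listed cytokines are split 2 and 2 with none called.

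Il27 (ENSMUSG00000044701, minus strand, chromosome 7 from 126589010 to 126594941) had the fewest reads of the 5 in wild type. Replicates 1, 2 and 3 held 28.8, 22.3 and 17.1 normalised counts among the Senp8+/- libraries, against 52.5, 36.9 and 52.4 among the wild-type ones. Wild-type replicate 2, the highest library for both costimulators, was the lowest for Il27. The recovered reads numbered 16 to 28 per Senp8+/- library and 35 to 60 per wild-type library and set the precision of these values. The means were 22.8 ± 5.85 and 47.3 ± 8.95, a 2.08-fold difference with an adjusted p of 0.214 in the authors' deposited table. limma gave -1.03 ± 0.37 (SE; adjusted p = 0.377). At its 3' end 103 of the 1021 exonic bases of Il27 overlap exonic bases of Apobr on the opposite strand in GENCODE M21, and reads there cannot be assigned without strand.

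None of the 4 listed genes among 19 cytokines that act on T cells was called in the authors' deposited table. Besides Il27, Tnfsf13b, the B cell survival factor BAFF that also acts on T cells, had means of 60.6 ± 13.4 in wild type and 26.03 ± 3.28 in Senp8+/- (adjusted p = 0.0502). Il10, the inhibitory cytokine of macrophages, had means of 2.22 ± 1.02 and 9.62 ± 4.67 (adjusted p = 0.390), and the alarmin Il33 8.42 ± 6.53 and 25.8 ± 1.05 (adjusted p = 0.204). The list thus split into 2 lower and 2 higher genes without a call, with a median of 0.29. Ebi3, the partner of p28, and the IL-12 and IL-23 subunit genes were not among the listed genes.

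Fgl2 (ENSMUSG00000039899, plus strand, chromosome 5 from 21372642 to 21378374) gave the most even difference of the 5. Replicates 1, 2 and 3 held 654, 458 and 521 normalised counts with the altered Senp8 copy, against 2108, 2001 and 1945 without it. The wild-type libraries differed by at most 1.08-fold, and the lowest of them was 2.98 times the highest Senp8+/- library. The mean fell 3.71-fold, from 2018 ± 83.2 to 544 ± 100.03 (SD, n = 3), with an adjusted p of 2.37e-14 in the authors' deposited table. limma gave -1.90 ± 0.26 (SE; adjusted p = 0.00275). That adjusted p was 0.113 without wild-type replicate 1, 0.0573 without Senp8+/- replicate 2 and 0.285 at equal medians, so the limma call was lost there while the direction held. The gene lies inside Ccdc146, on the opposite strand, and shares none of its exonic bases with it (0).

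The other listed products that restrain T cells did not share 1 direction. Of 13 such genes 4 were listed, and 3 fell and 1 rose, with a median log2 fold change of -2.25. Over all 714 listed genes 242 fell and 53 rose. The 4 genes include the member Fgl2. Besides Fgl2 they were the arginine-consuming enzymes Arg1 and Nos2, which fell 6.07- and 13.4-fold, and Nt5e. Nos2 stood at 15.4, 6.51 and 3.21 in the Senp8+/- libraries, on 15, 7 and 3 reads. With 1 library left out its fold ran from 10.1, without wild-type replicate 3, to 23.1, without Senp8+/- replicate 1. Nt5e encodes CD73, which makes adenosine, and rose 5.21-fold, from 4.72 ± 2.26 to 24.6 ± 5.88 (adjusted p = 0.0144 in the authors' deposited table; limma adjusted p = 0.0336). It had only 6, 2 and 7 reads in wild-type replicates 1, 2 and 3, and 19, 25 and 29 in the Senp8+/- replicates.

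Clec9a (ENSMUSG00000046080, plus strand, chromosome 6 from 129408862 to 129424763) showed the largest fold difference of the 5 at a low level. Senp8+/- replicates 1, 2 and 3 held 16.5, 9.30 and 11.8 normalised counts, and wild-type replicates 1, 2 and 3 held 75.3, 77.1 and 96.1. These values rest on 10 to 16 recovered reads per Senp8+/- library and 73 to 110 per wild-type library. The groups lay far apart, the lowest wild-type library being 4.57 times the highest Senp8+/- library. The mean fell 6.62-fold, from 82.8 ± 11.5 to 12.5 ± 3.64 (SD, n = 3), with an adjusted p of 9.61e-09 in the authors' deposited table. limma gave -2.66 ± 0.37 (SE; adjusted p = 0.00285), and 0.0941 without wild-type replicate 1 and 0.0537 without Senp8+/- replicate 2. Of its 3293 exonic bases 184 overlap exonic bases of Clec1b on the same strand in GENCODE M21. Clec1b is not listed.

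Whether Clec9a moved with other dendritic cell genes could be followed only in part, since most of them are not listed. In bulk RNA fewer cells of a type and less RNA per cell cannot be told apart. Of 16 cDC1 markers 3 were listed, all lower, as were 569 of all 714 listed genes. Among the 3, 2 fell, and without Clec9a 1 of 2 did, where 33.9% of the listed genes fell. Besides Clec9a, Naaa, a lysosomal amidase that is also high in macrophages, fell from 1525 ± 333 to 691 ± 97.1 (limma adjusted p = 0.0809), while the profilin receptor gene Tlr11, at 7.84 ± 3.87 in wild type against 1.64 ± 1.46, was not called. Xcr1, Batf3, Irf8 and Wdfy4 are among the 13 without a value. Unlisted markers may have missed the limits of p and fold or not been tested, so the 3 listed do not stand for the 16. Of 9 cDC2 markers the 1 listed, the lectin Mgl2, fell from 49.9 ± 14.9 to 13.9 ± 8.68 (limma adjusted p = 0.0954). It had 5, 15 and 21 reads in Senp8+/- replicates 1, 2 and 3. Of 13 genes of mature dendritic cells 2 were listed, and the T cell chemokines Ccl22 and Ccl5 fell 2.71- and 4.55-fold. None of the 6 pan dendritic cell markers was listed (0), and of 7 pDC markers 1 was, Cox6a2, which was not called.

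Of 12 C-type lectin genes around Clec9a on chromosome 6, 4 were listed, 3 lower and 1 higher in Senp8+/-. Over all 714 listed genes 569 were lower and 145 higher. Of the 4, 1 fell, 1 rose and 2 were not called, where 242 of the 714 fell and 53 rose. The split describes these 4 genes only. Olr1, the receptor LOX-1 for oxidised lipoprotein, rose from 82.9 ± 19.9 to 174 ± 1.57 (adjusted p = 0.0113 in the authors' deposited table; limma adjusted p = 0.170). Klrk1, the NKG2D receptor of NK and T cells, fell from 44.5 ± 11.1 to 11.4 ± 7.51 (limma adjusted p = 0.102). It had 16, 3 and 14 reads in Senp8+/- replicates 1, 2 and 3. The myeloid inhibitory receptor Clec12a had means of 8288 ± 3210 in wild type and 3808 ± 839.9 in Senp8+/- and was not called (adjusted p = 0.0554 in the authors' deposited table).

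Markers of lymphocytes were followed in the same libraries. Of 20 T and NK cell markers 10 had no value, 7 fell and 3 were listed but not called. All 10 listed were lower in Senp8+/-, as were 569 of all 714 listed genes, of which 242 fell. Their summed level was 62.8 to 67.0 normalised counts in the Senp8+/- libraries and 329.8 to 388 in the wild-type libraries, and Gzma and Ncr1 had 0 reads in each Senp8+/- library. Gzmb, a cytotoxic granule protease, fell from 38.8 ± 12.4 to 1.97 ± 0.863. Among them was Cd28, the T cell receptor for CD86 and the 1 listed gene of 7 receptors and partners of the members, which fell from 113 ± 33.3 to 29.0 ± 4.99. Of 8 B cell markers the 1 listed, Cd79b, was not called. The part of these cells in the differences of the 5 genes was not tested.

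The differences of the 5 genes were unequal, which can be read with little effect of scaling from the ratio of 2 genes within a library. Some effect remains for low genes such as Clec9a, since 1 was added to each scaled value. All 10 pairs were compared by exact two-sided permutation over the 6 libraries, for which the smallest possible p is 0.10. In 6 pairs the genotypes did not overlap, and these reached that p (0.167 after Benjamini-Hochberg adjustment over 10 pairs), which cannot pass 0.05. How often pairs of other listed genes lack overlap was not computed, and the pairs share genes. The count therefore describes these members only. Relative to each of the other 4 genes, Clec9a stood lower in each Senp8+/- library than in any wild-type library. The log2 ratio of Cd83 to Clec9a was 4.48, 4.77 and 3.79 in wild-type replicates 1, 2 and 3 and 5.96, 6.08 and 5.97 in the Senp8+/- replicates, a difference of 1.66. The difference was 1.62 for Il27 to Clec9a, 1.37 for Cd86 to Clec9a and 0.75 for Fgl2 to Clec9a, with no overlap in any of them. With 0.5 or 5 added in place of 1, the difference was 0.80 or 0.44 for Fgl2 to Clec9a. For Cd86 to Clec9a it was 1.42 or 1.06.

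Fgl2 in turn stood lower relative to Cd83 and to Il27. The log2 ratio of Cd83 to Fgl2 was 0.73, 0.60 and 0.62 in Senp8+/- and -0.31, 0.08 and -0.53 in wild type, a difference of 0.90, and that of Il27 to Fgl2 differed by 0.87. The ratio of Cd86 to Fgl2 differed by 0.62 with overlap between the genotypes (exact permutation p = 0.20). The costimulators did not separate from each other, since the log2 ratio of Cd86 to Cd83 was -1.80 ± 0.40 in Senp8+/- and -1.51 ± 0.17 in wild type (SD, n = 3; exact permutation p = 0.50). Il27 did not separate from them either, with differences of -0.25 for Cd86 to Il27 and 0.03 for Cd83 to Il27 (exact permutation p = 0.60 and 1), and with 3 libraries a genotype such ratios could still differ.

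**Figure D3:**
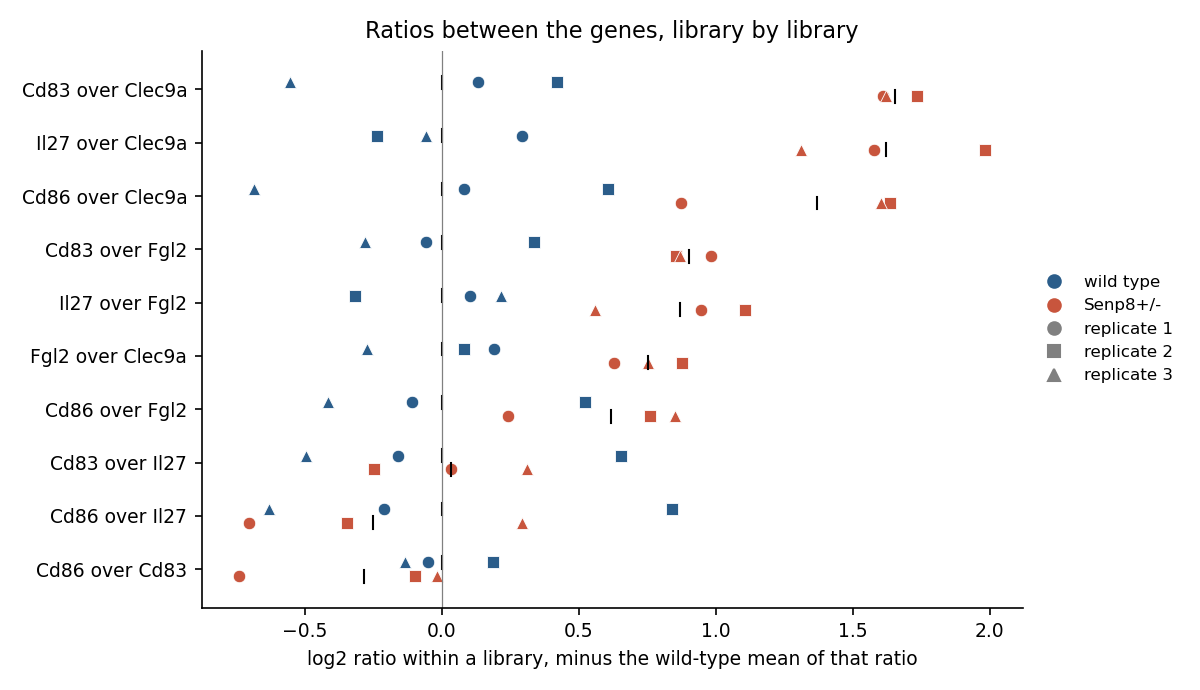
Log2 ratio of each pair of genes within each library, minus the wild-type mean of that ratio, with black ticks for the mean of each genotype and marker shapes for replicate numbers. The upper 6 pairs, those with Clec9a and those of Fgl2 with Cd83 and Il27, show no overlap between genotypes, and the lower 4 do.

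Per kilobase of gene model, Cd83 was the most abundant of the 5 in wild type at a mean of 669 normalised counts, followed by Fgl2 at 533, Cd86 at 168, Il27 at 46.3 and Clec9a at 25.1. The Cd83 and Fgl2 levels overlapped there, at 522 to 825 and 513 to 557 per kilobase. In Senp8+/- the order of the means was the same, at 334, 144, 66.4, 22.3 and 3.80 per kilobase. The Cd83 and Fgl2 levels no longer overlapped, at 271 to 421 and 121 to 173 per kilobase.

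Listed genes with the most similar profile were sought for each member by the root mean square difference of log2(value + 1), centred on each gene's mean, over the 6 libraries. For Cd86 these were Ms4a8a, Plbd1 and Tst, at 0.14, 0.14 and 0.15, and for Cd83 Gem, P2ry14 and Lrrc39, at 0.13, 0.15 and 0.15. For Il27 they were Il21r, which encodes the IL-21 receptor, Zc3h12d and Pltp, at 0.11, 0.13 and 0.13. Fgl2 was closest to C1ra, H2-DMa and Cd74 (0.14, 0.14 and 0.15), of which the last 2 serve MHC class II loading. Clec9a was closest to the interferon-induced GTPase gene Iigp1 and the class I genes H2-Q5 and H2-Q4, at 0.18, 0.18 and 0.28, and the H2-Q genes are near-identical neighbours whose reads are uncertain. Among the members themselves the closest pair was Cd86 with Cd83 at 0.29 and the most distant Cd83 with Clec9a at 0.88. All listed genes were selected on the same contrast, so close profiles are a description over these libraries.

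**Figure D4:**
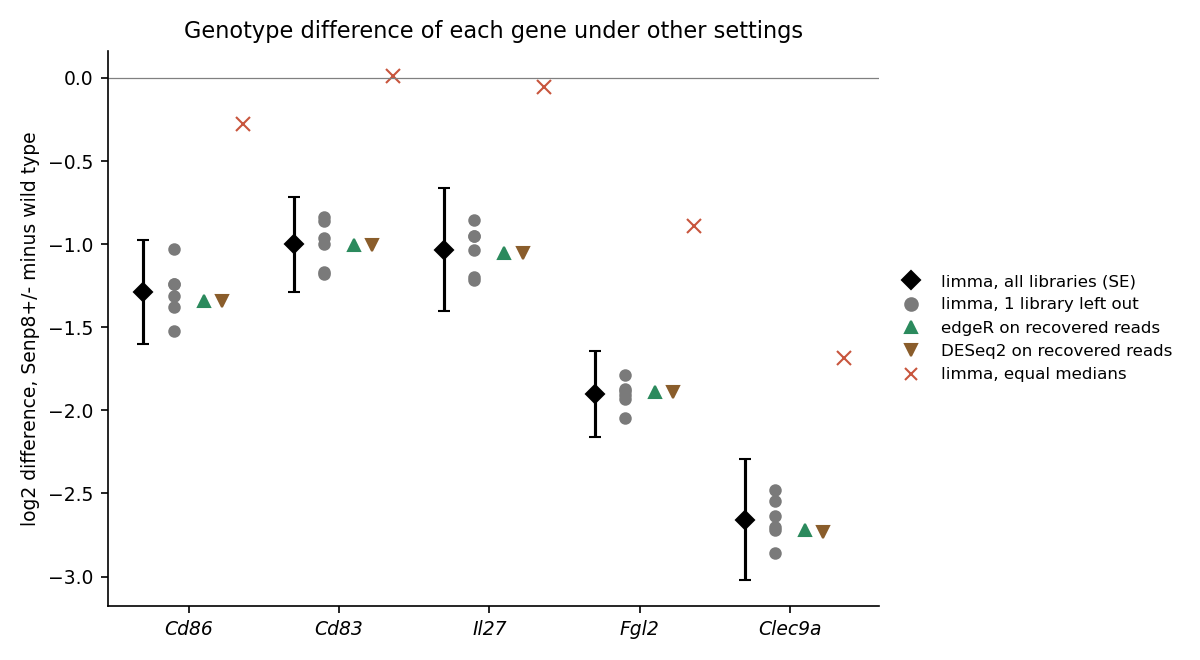
Log2 difference (Senp8+/- minus wild type) of each gene from limma on all libraries with its SE, from limma with 1 library left out, from edgeR and DESeq2 on the recovered reads, and from limma at equal medians over the listed genes. The left-out values run from -2.86 to -2.48 for Clec9a and from -1.18 to -0.84 for Cd83, and the equal medians place Cd83 at 0.01.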

How the data were processed

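RNA was sequenced from poly(A)-selected libraries of 3 Senp8+/- and 3 wild-type samples. The aligner HISAT2 2.0.5 and the counter featureCounts 1.5.0-p3 are named, per the submitters' processing notes. Not given in the sources used here are the build, annotation, counting settings, strand use and test. The deposited values are a signal per gene, reads divided by a size factor per library, and all were whole multiples of 1 step (100%, tolerance 1e-06 reads), from which whole reads were recovered. The authors deposited log2 fold changes, p-values and adjusted p-values. From the ratio of adjusted to raw p, their correction spanned 14694 genes. Of the 714 identifiers 713 are in GENCODE M21 (GRCm38), 686 with the same start and end, so positions are named as GRCm38.

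A limma 3.58.1 model (R 4.3.3, with trend) took log2(value + 1) of the 714 genes and fitted genotype alone. Its p-values were Benjamini-Hochberg adjusted over 14694 genes at 0.05, which assumes larger p-values for unlisted genes. Fold changes on this scale understate low genes. Alternatives were pseudocounts of 0.5 and 5, a mean of at least 10, equal medians, edgeR 4.0.16 and DESeq2 1.42.0 run on recovered reads (size factors as deposited), a replicate block, and each library left out. Scripts were tested on simulated data. Other samples' columns numbered 0.

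The members, lists and motifs were chosen with earlier results of these data known. Besides the members, named genes are up to 3 called genes of smallest p per list, and the 3 nearest profiles of each member among genes with at least the table's median mean level and no predicted-gene symbol. The other genes given with values (Nectin2, Tnfsf9, Tnfsf13b, Il10, Il33, Tlr11, Clec12a, C1qa, C1qc, Cox6a2, Cd79b and Ncr1) were named after their values were seen.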

Additional observations from a re-analysis of the deposited data

How the results depend on the processing

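Lower levels in Senp8+/- held for each of the 5 genes under 13 alternatives, except that equal medians placed Cd83 at 0.012. That scaling moves differences up because most listed genes were lower. limma's calls were less stable. The 176 listed genes past its threshold became between 11 and 181 with 1 library left out. They numbered 11 and 112 when wild-type replicate 1 or 2 was left out, and 100, 37 and 87 when Senp8+/- replicate 1, 2 or 3 was. The log2 difference ran from -1.52 to -1.03 for Cd86, -2.04 to -1.79 for Fgl2 and -2.86 to -2.48 for Clec9a with 1 library left out. Cd86 passed with DESeq2 on the recovered reads (-1.34, adjusted p = 0.00812, in a range of 0.00812 to 1 over its alternatives) and without wild-type replicate 3. Fgl2 no longer passed at equal medians (-0.89, adjusted p = 0.285, in a range of 2.72e-08 to 0.285), nor without wild-type replicate 1 or Senp8+/- replicate 2, which also ended the limma call of Clec9a. Why these calls changed was not tested. The fits with 1 library left out also had fewer libraries. Of 90 alternatives for the 10 ratios 85 kept their direction. Those that turned were Cd83 to Il27 with a pseudocount of 5 (-0.079) and with 1 library left out (-0.22 to 0.36), and Cd86 to Il27 with 1 library left out (-0.57 to 0.17), ratios that did not separate the genotypes. The replicate numbers share no stated source, and deviations of same-numbered libraries correlated over genes at 0.01, 0.04 and -0.24, so they were not taken as pairs. With a replicate block limma passed 174 genes, again Clec9a and Fgl2 but not Cd86, Cd83 or Il27. Of the 5 genes Il27 had the fewest recovered reads in wild type and Clec9a in Senp8+/-.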
